A study of Rattus norvegicus with 45 samples.

Results

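The brain arm of the series compared brain RNA of rats given empagliflozin with brain RNA of rats given vehicle. The labels name brain as the tissue of 6 of the 45 libraries, and all 6 were used. The empagliflozin rats (n = 3) were male spontaneously hypertensive rats, 8 weeks old and weighing 220 to 260 g, which received the drug by gavage at 10 mg per kg per day for 30 days. The vehicle rats (n = 3) had the same strain, sex, age and weight range and received saline over the same 30 days. Both arms therefore carried the genetic hypertension of the strain, and no rat of a strain with normal blood pressure entered the comparison. The labels give no brain region and do not say whether whole brains or pieces were taken. The question set by the design is which brain transcripts differ in level after a month of the drug.

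Empagliflozin is an inhibitor of sodium-glucose cotransporter SGLT2, which takes up filtered glucose in the kidney and is encoded by Slc5a2. Brain RNA is a mixture of neurons, astrocytes, oligodendrocytes, microglia and vessel cells, and the neurons of each region carry their own set of transcripts. Medium spiny neurons of the striatum make dopamine receptors, hypothalamic neurons make vasopressin, oxytocin and orexin, and pyramidal neurons of the cortex and hippocampus make the vesicular glutamate transporter Slc17a7. The marker genes listed for these libraries were Nr4a3, an immediate early gene of the nuclear receptor family, Emcn, a surface sialomucin of capillary and venous endothelium, and Isg15, a ubiquitin-like protein induced by interferon.

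Levels are given in FPKM, the authors' deposited unit, which divides the fragments of a gene by its transcript length and by the mapped fragments of the library. The label brain fitted the cell type markers: the mean log2(FPKM + 1) of 12 neuron markers was 6.98 to 7.83 in the 6 brain libraries and 0.21 to 4.63 in the 39 libraries of other tissues. Astrocyte markers were at 6.23 to 7.39 in brain and 1.39 to 3.17 elsewhere, and myelin markers at 5.28 to 7.38 in brain and 0.69 to 4.52 elsewhere. The deposited FPKM give no read totals, so the depth of each library is unknown. Brain libraries listed 17636 to 18194 genes above 0. Each arm was deposited as its own table, so arm and table cannot be told apart. Nothing in the labels says how the tissue of each rat was dissected, and p-values measure only the spread between these 6 libraries.

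Markers of brain regions differed between the libraries, within the arms as well as between them. In empagliflozin libraries 1, 2 and 3 the mean log2 level of 12 striatum markers was 6.52, 3.09 and 5.98, against 3.25, 3.15 and 2.46 in vehicle libraries 1, 2 and 3. Cerebral cortex markers stood at 5.22, 6.34 and 3.02 in the empagliflozin libraries and at 5.33, 6.13 and 5.31 in the vehicle libraries. Empagliflozin libraries 1 and 3 were thus high in striatum markers, and empagliflozin library 3 was low in cortex markers. Hypothalamic neuropeptide markers stood at 1.42, 0.56 and 4.66 in the empagliflozin libraries and at 1.11, 0.74 and 1.23 in the vehicle libraries. Hippocampus markers stood at 2.24, 2.03 and 2.09 in the empagliflozin libraries and at 3.13, 2.34 and 3.9 in the vehicle libraries. Empagliflozin library 3 stood apart for the hypothalamus, and vehicle libraries 1 and 3 were the highest for the hippocampus. Serotonin and hindbrain markers were near 0 in every library, at 0.11 to 0.26.

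**Figure D1:**
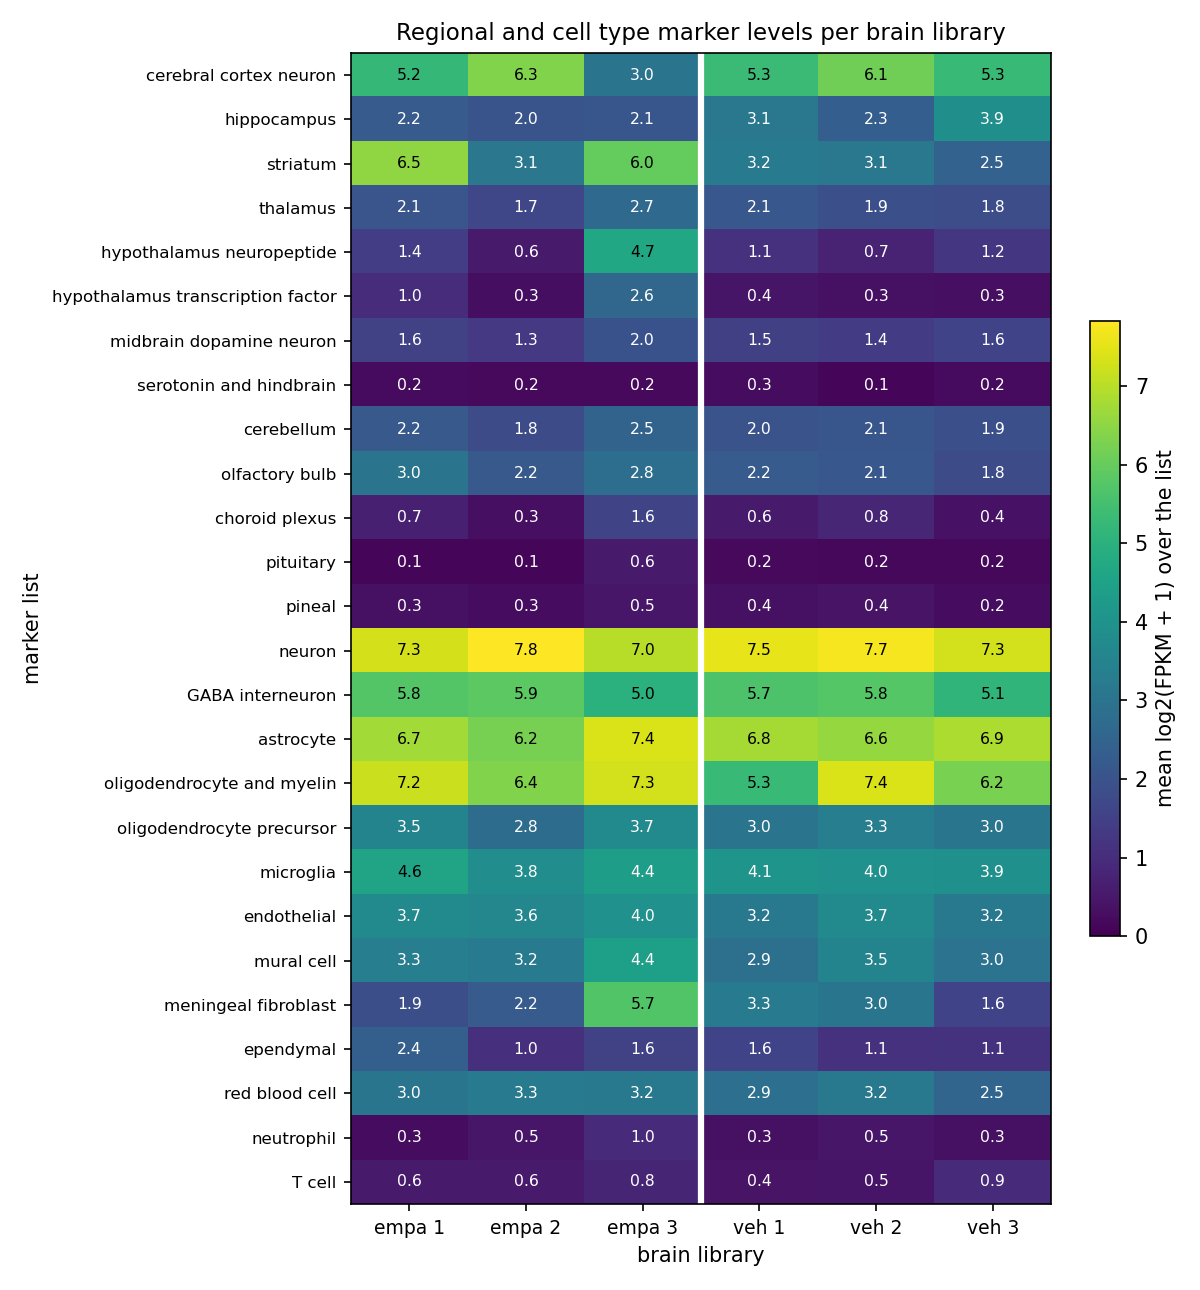
Mean log2(FPKM + 1) of each marker list (rows) in the 3 empagliflozin (empa) and 3 vehicle (veh) brain libraries (columns), with colour and the printed number both giving the level. Striatum markers reach 6.52 and 5.98 in empagliflozin libraries 1 and 3, while empagliflozin library 2 at 3.09 and vehicle library 2 at 3.15 lie close together.

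Single genes showed the same split. The dopamine receptor gene Drd1 was at 45.2, 1.84 and 50.1 FPKM in the empagliflozin libraries and at 5.27, 1.91 and 1.64 FPKM in the vehicle libraries. Adora2a, the adenosine receptor of striatal neurons that also carry Drd2, was at 61.3, 1.9 and 29.4 FPKM with empagliflozin and at 0.7, 1.99 and 1.61 FPKM with vehicle. In both genes empagliflozin libraries 1 and 3 were high, and empagliflozin library 2 lay among the vehicle libraries. Avp, which encodes vasopressin, was at 1.31, 0.79 and 3154 FPKM with empagliflozin and at 1.76, 1.14 and 0.23 FPKM with vehicle. Oxt, which encodes oxytocin, was at 3.79, 0.29 and 1094 FPKM with empagliflozin and at 0.65, 0.68 and 0 FPKM with vehicle. Hcrt, which encodes orexin, was at 0.79, 0.12 and 46.3 FPKM with empagliflozin and at 0.5, 0.37 and 0 FPKM with vehicle. All 3 peptide genes were high in empagliflozin library 3 alone. Otp, a transcription factor of the neuroendocrine hypothalamus, was at 0.15, 0 and 21.1 FPKM in the empagliflozin libraries and at 0.05, 0.05 and 0.05 FPKM in the vehicle libraries, the same single high library.

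The cortical and hippocampal genes divided the libraries in other ways. Slc17a7 was at 331, 595 and 7.31 FPKM with empagliflozin and at 633, 519 and 716 FPKM with vehicle, with empagliflozin library 3 far below all others. Tbr1, a transcription factor of deep-layer cortical neurons, was at 23.5, 42.2 and 1.82 FPKM with empagliflozin and at 20.1, 41.3 and 12.3 FPKM with vehicle, highest in library 2 of each arm. For both genes empagliflozin library 3 was the lowest. Fibcd1, a gene of hippocampal CA1 pyramidal neurons in rodents, was at 2.08, 2.69 and 1.36 FPKM with empagliflozin and at 50.4, 2 and 59.3 FPKM with vehicle. C1ql2, a secreted protein of dentate granule neurons, was at 5.63, 0.14 and 10.2 FPKM with empagliflozin and at 26.8, 5.97 and 73.7 FPKM with vehicle. Vehicle libraries 1 and 3 were the high ones for both, and vehicle library 2 lay within the range of the empagliflozin libraries. Across all genes tested, the closest pair of libraries was empagliflozin library 2 and vehicle library 2 (Pearson r = 0.988 of log2 values), while empagliflozin library 3 correlated with vehicle library 3 at 0.899. These correlations run over genes of whole profiles that share most of their expression, and genes are not replicates.

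**Figure D2:**
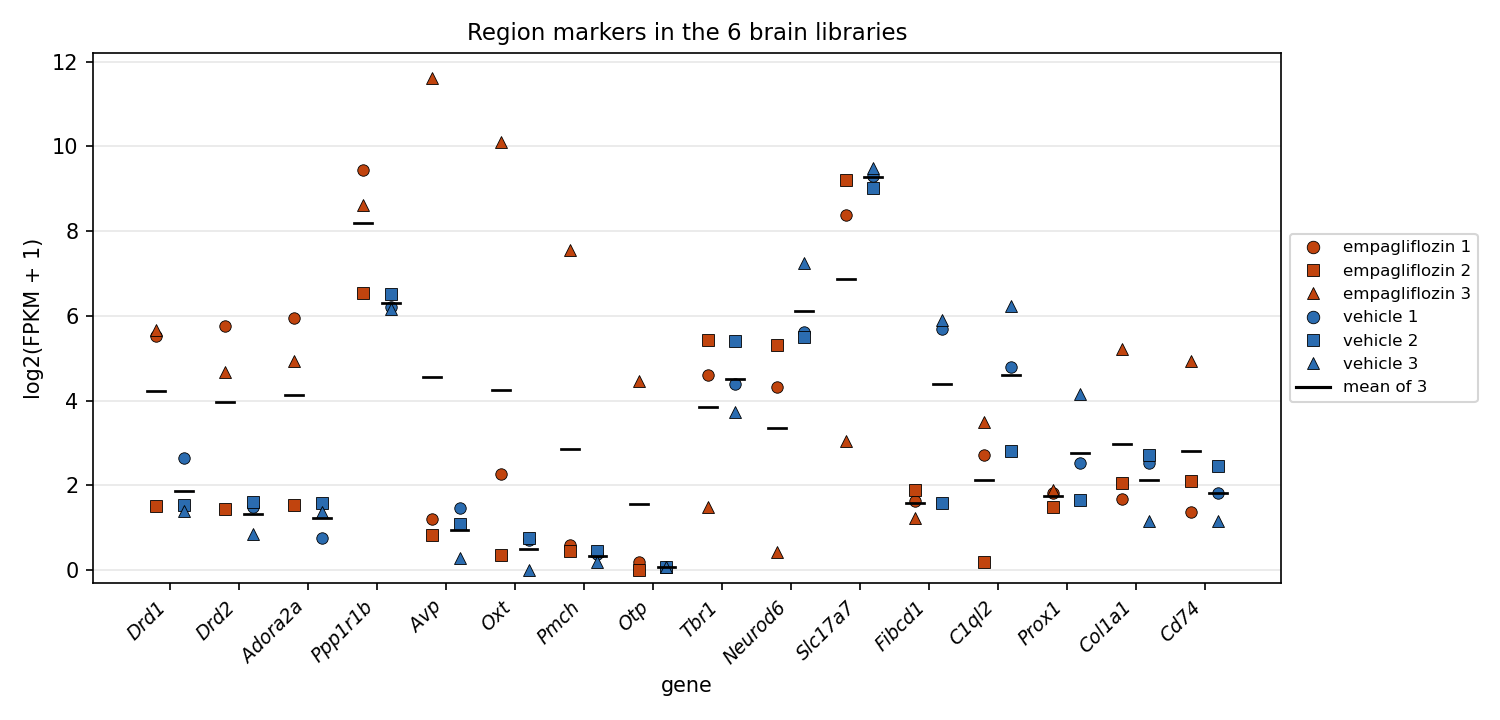
Level of region and tissue markers, as log2(FPKM + 1), in each brain library; the empagliflozin libraries are orange and left of the blue vehicle libraries, symbols give the library number and bars the mean of 3. Drd1, Drd2 and Adora2a are high in empagliflozin libraries 1 and 3, Avp and Oxt in empagliflozin library 3, and Fibcd1 in vehicle libraries 1 and 3.

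Other tissue types followed empagliflozin library 3 as well. Meningeal fibroblast markers, a list of collagens, other matrix proteins, 2 transporters and the growth factor Igf2, had a mean log2 level of 1.88, 2.24 and 5.69 in the empagliflozin libraries and 3.26, 3.04 and 1.57 in the vehicle libraries. Their member Col1a1 was at 2.18, 3.18 and 36.1 FPKM with empagliflozin and at 4.74, 5.53 and 1.23 FPKM with vehicle. The MHC class II chaperone Cd74 was at 1.57, 3.33 and 29.7 FPKM with empagliflozin and at 2.52, 4.52 and 1.24 FPKM with vehicle, again with 1 high library. Empagliflozin library 3 was the highest or the lowest of the 6 in 57.7% of the genes tested, against 20.4% for vehicle library 2. It differed at least 4-fold from the median of the other libraries in 296 genes, of which 234 were higher. Myelin markers were lowest in vehicle library 1, and Mbp, the myelin basic protein gene, was at 3647, 1819 and 3733 FPKM with empagliflozin and at 661, 4044 and 1874 FPKM with vehicle. T cell marker Cd3e stood out in vehicle library 3, at 0.11, 0.38 and 0.47 FPKM with empagliflozin and 0.13, 0.11 and 22.1 FPKM with vehicle. In these bulk libraries, fewer cells of a type and less RNA per cell cannot be told apart.

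Against this background no gene differed between the arms past the threshold. Of the 14000 genes that averaged 1 FPKM or more in either arm, limma with Benjamini-Hochberg adjustment called 0 (0%) at an adjusted p under 0.05, and the smallest adjusted p was 0.982. At an unadjusted p under 0.05 there were 360 genes (2.57%), 203 higher (1.45%) and 157 lower (1.12%) with empagliflozin. The arms did not overlap in 829 genes (5.92%), of which 509 were higher (3.64%) and 320 lower (2.29%) with empagliflozin. The log2 change was above 0 in 8534 genes (61%), with a median of 0.05. Quantile normalization turned the balance, with 177 higher and 231 lower at an unadjusted p under 0.05. With 3 libraries an arm the smallest two-sided p of an exact permutation test is 0.1, which each gene whose arms do not overlap reaches. Each gene given below with a log2 change had a limma adjusted p of 0.982. On simulated data the same test found 35.5% of the genes that were given a log2 change of 1 and 76.5% of those given 2. The noise was drawn independently for each gene, and changes were placed only in genes with a mean log2 level above 1. Shared regional shifts were not simulated, so these shares need not hold for the real libraries.

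The counts depended on single libraries. Without empagliflozin library 2, whose striatum markers were at the vehicle level, 8 genes passed, and 966 were higher and 388 lower at an unadjusted p under 0.05. The 8 were Rarb, Rgs9, Pde10a, Six3, Pde7b, Nexn, Slc35d3 and an uncharacterised locus, named after their values were seen because they are few, and the first 3 are members of the striatum list. Leaving out empagliflozin library 1 gave 87 higher and 75 lower, empagliflozin library 3 gave 136 and 138, and vehicle library 1 gave 133 and 74. Without vehicle library 2 the counts were 463 and 425, and without vehicle library 3 they were 95 and 84. With the striatum marker level of each library as a covariate, 25 genes were higher and 56 lower. Without empagliflozin libraries 1 and 3, 73 were higher and 128 lower, but there the empagliflozin arm is 1 library and the spread is that of the vehicle arm alone, which library 2 is assumed to share. In each of these settings other than the first, 0 genes passed.

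**Figure D3:**
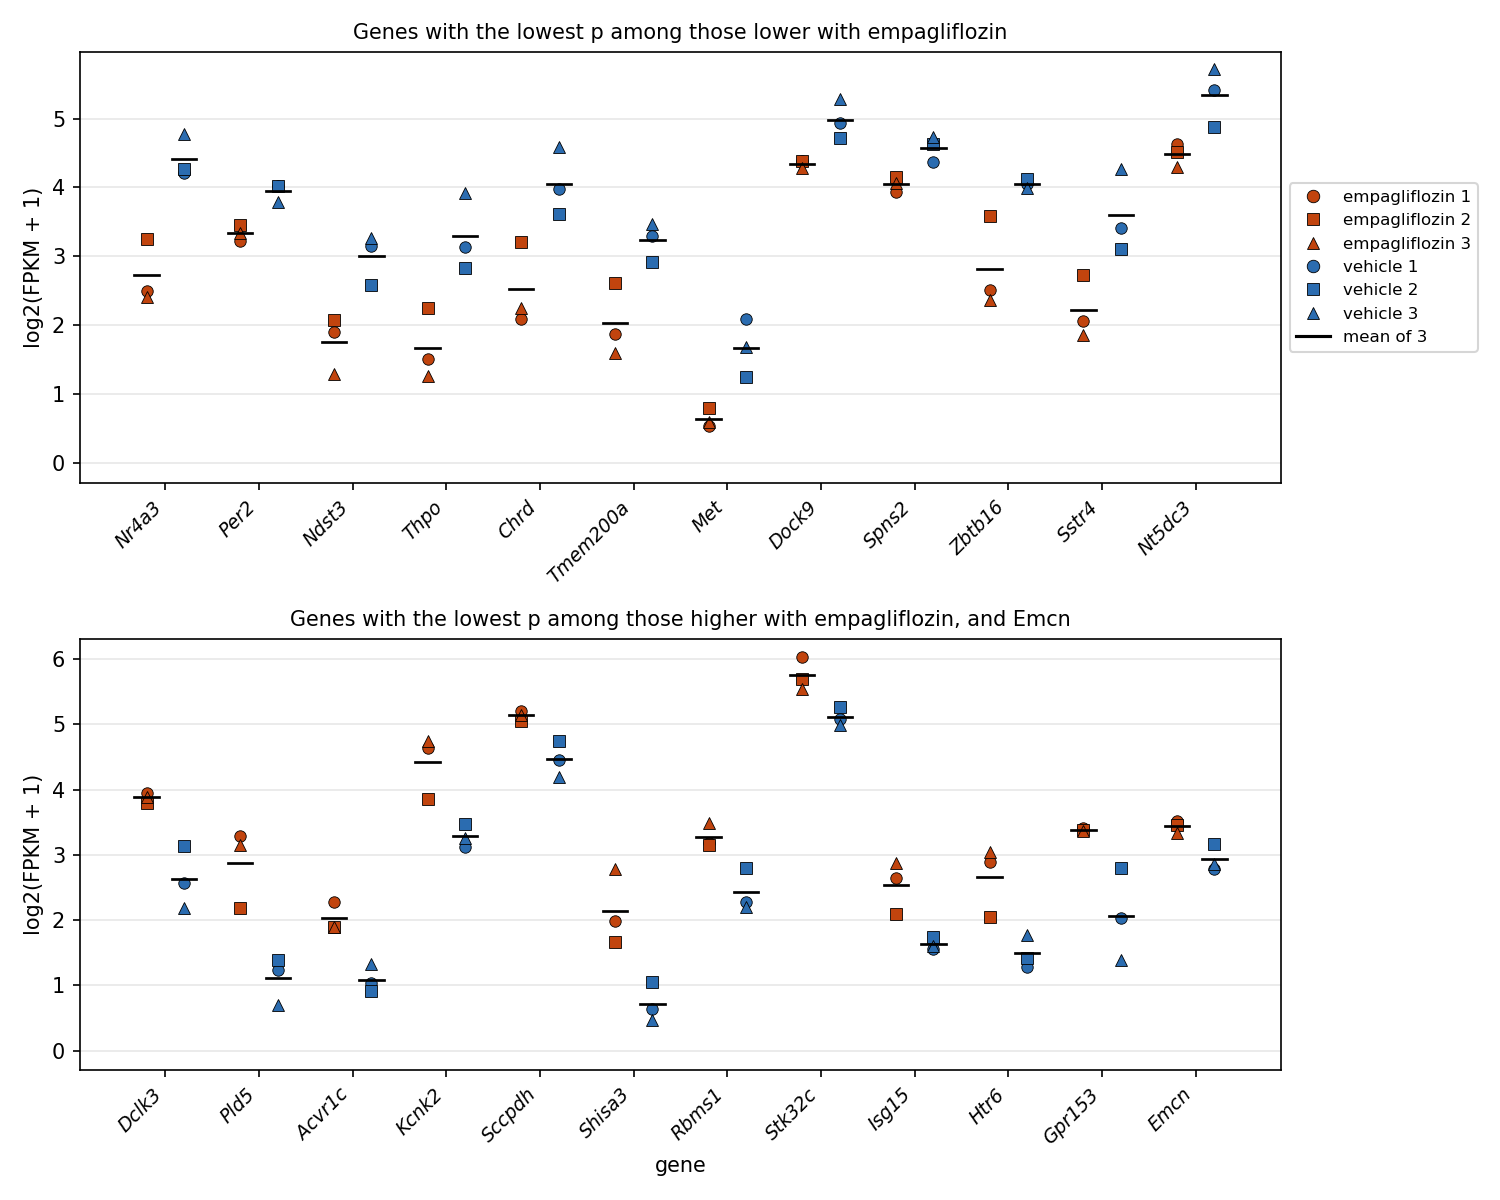
Level, as log2(FPKM + 1), of genes with the lowest p in each direction and of Emcn in each brain library; empagliflozin libraries are orange and left of the blue vehicle libraries, symbols give the library number and bars the mean of 3. For Nr4a3 the empagliflozin libraries lie at 4.33 to 8.5 FPKM and the vehicle libraries at 17.5 to 26.3 FPKM, and no gene shown passed the adjusted threshold.

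The lowest p of all genes belonged to Nr4a3 (gene 58853), which was lower with empagliflozin. Its level was 4.65, 8.5 and 4.33 FPKM in the empagliflozin libraries, against 17.6, 18.2 and 26.3 FPKM in the vehicle libraries. The arms did not overlap, and empagliflozin library 2 was the highest of its arm. The log2 change was -1.70 ± 0.27 (SE), with an unadjusted limma p of 0.000568 and an adjusted p of 0.982. Leaving out each library in turn gave -1.96 to -1.52, with a lowest adjusted p of 0.114, and empagliflozin library 2 alone against the vehicle libraries gave -1.17. Its family members were spread within the arms. Nr4a1 was at 62.1, 94.5 and 34.3 FPKM with empagliflozin and at 41.4, 133 and 72.4 FPKM with vehicle. Nr4a2 was at 27.3, 8.1 and 2.39 FPKM with empagliflozin and at 34, 10.4 and 28.7 FPKM with vehicle. Both overlapped between the arms.

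Nr4a3 belongs to the immediate early genes, which neurons transcribe within minutes of activity. Of 29 listed, 28 were tested, 12 higher and 16 lower with empagliflozin, with a median log2 change of -0.21. Only Nr4a3 and Fosl2, a Fos family subunit of the AP-1 factor, reached an unadjusted p under 0.05 by limma, both lower. Fosl2 was at 6.72, 7.11 and 6.89 FPKM with empagliflozin and at 14.5, 12.5 and 8.54 FPKM with vehicle, arms that did not overlap, and its log2 change was -0.67 ± 0.20 (SE). The most used activity markers showed no such order. Fos was at 18.8, 24.3 and 25.6 FPKM with empagliflozin and at 15.2, 34.2 and 7.23 FPKM with vehicle. Arc, which encodes a synaptic capsid-like protein, was at 58.1, 122 and 16.4 FPKM with empagliflozin and at 30.9, 175 and 99.8 FPKM with vehicle. Egr1 was at 124, 193 and 74.9 FPKM with empagliflozin and at 86.3, 259.6 and 139 FPKM with vehicle. For Arc and Egr1 vehicle library 2 was the highest and empagliflozin library 3 the lowest. Without empagliflozin library 3 the list had 19 members higher and 9 lower (median 0.09), so its direction rested on that library. In each case the part of the regional makeup in the result was not tested.

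The next lowest p among lower genes was that of Per2 (gene 63840), a repressor of the circadian clock. Per2 was at 8.37, 9.91 and 9.14 FPKM with empagliflozin and at 15.3, 15.2 and 12.8 FPKM with vehicle, without overlap. Its log2 change was -0.60 ± 0.13 (SE), and -0.49 with empagliflozin library 2 alone. The rest of the clock did not go with it: of 19 genes tested, 13 were higher and 6 lower, with a median of 0.12, and Per2 was the 1 gene at an unadjusted p under 0.05. Per1, which like Per2 responds to light and glucocorticoid in rodents, was at 31.1, 30.4 and 32.6 FPKM with empagliflozin and at 22, 43.9 and 29.4 FPKM with vehicle. Per3 was at 16.5, 9.91 and 20.7 FPKM with empagliflozin and at 9.35, 10.6 and 10.3 FPKM with vehicle. Dbp, an output gene of the clock, was at 144, 82.1 and 133 FPKM with empagliflozin and at 87.9, 88.7 and 80.2 FPKM with vehicle. In Per3 and Dbp empagliflozin libraries 1 and 3 were high and empagliflozin library 2 was not. The labels give the light cycle but no hour of tissue collection.

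Zbtb16, a zinc finger repressor induced by glucocorticoid, was the 1 member of the corticosteroid list at an unadjusted p under 0.05. It was at 4.68, 11 and 4.14 FPKM with empagliflozin and at 15.6, 16.3 and 14.9 FPKM with vehicle, without overlap. The log2 change was -1.24 ± 0.32 (SE). Its lowest adjusted p with 1 library left out was 0.0508, and with empagliflozin library 2 alone the change was -0.47. The 18 tested genes of the list split evenly, 9 higher and 9 lower, with a median of 0.00. Fkbp5, the co-chaperone of the glucocorticoid receptor, was at 14.2, 11 and 19.9 FPKM with empagliflozin and at 13, 10.8 and 20.4 FPKM with vehicle. Sgk1, a kinase that raises epithelial sodium uptake, was at 54.6, 28 and 105 FPKM with empagliflozin and at 24.6, 83.9 and 68.1 FPKM with vehicle. Both overlapped between the arms. Nr3c2, the mineralocorticoid receptor gene and a transcript of hippocampal neurons, was at 10.7, 8.78 and 11.4 FPKM with empagliflozin and at 18.6, 8.95 and 55.7 FPKM with vehicle, highest in vehicle library 3.

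The other 9 lower genes named by lowest p all had arms that did not overlap, which the choice by lowest p favours. Of all genes tested, 2.29% were lower without overlap. Ndst3, a heparan sulfate sulfotransferase of brain, was at 2.74, 3.19 and 1.45 FPKM with empagliflozin and at 7.87, 4.97 and 8.61 FPKM with vehicle, a log2 change of -1.24 ± 0.28 (SE). Chrd, the secreted BMP antagonist chordin, was at 3.27, 8.28 and 3.75 FPKM with empagliflozin and at 14.7, 11.2 and 23 FPKM with vehicle, a log2 change of -1.53 ± 0.37. Chrd and a gene that the files call Thpo (gene 81811) follow each other on chromosome 11 in the RefSeq annotation GRCr8. Thpo 81811 was at 1.83, 3.74 and 1.4 FPKM with empagliflozin and at 7.74, 6.09 and 14.1 FPKM with vehicle, a log2 change of -1.62 ± 0.37. RefSeq names gene 81811 Thpol1, and the files give the symbol Thpo to 2 identifiers, so the symbol is uncertain. The other identifier, 108348162, was also lower, at 0.68, 1.32 and 0.55 FPKM with empagliflozin and at 4.45, 1.56 and 8.34 FPKM with vehicle. Reads of overlapping genes cannot be told apart here. Sstr4, a somatostatin receptor, was at 3.17, 5.59 and 2.62 FPKM with empagliflozin and at 9.67, 7.57 and 18.4 FPKM with vehicle. Met, the receptor of hepatocyte growth factor, was at 0.44, 0.74 and 0.51 FPKM with empagliflozin and at 3.24, 1.38 and 2.21 FPKM with vehicle. In Met all 3 empagliflozin libraries lay below 1 FPKM and all 3 vehicle libraries above it. Dock9, an activator of the GTPase Cdc42, was at 19.8, 19.9 and 18.4 FPKM with empagliflozin and at 29.8, 25.4 and 37.9 FPKM with vehicle. Spns2, which exports sphingosine-1-phosphate from endothelium, was at 14.2, 16.9 and 15.7 FPKM with empagliflozin and at 19.8, 23.8 and 25.6 FPKM with vehicle. Tmem200a and Nt5dc3 had log2 changes of -1.21 ± 0.29 and -0.86 ± 0.23. Ndst3, Chrd, Thpo 81811, Tmem200a, Sstr4, Dock9 and Nt5dc3 had a common order in the vehicle libraries. Vehicle library 3 was the highest and vehicle library 2 the nearest to the empagliflozin libraries, as for the hippocampus markers Fibcd1, C1ql2 and Wfs1. In Met vehicle library 1 was the highest, and in Spns2 vehicle library 1 was the nearest to the empagliflozin libraries. The part of the hippocampus markers in these results was not tested.

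Among the higher genes the lowest p belonged to Dclk3 (gene 316023), a doublecortin-like kinase. It was at 14.5, 12.9 and 13.8 FPKM with empagliflozin and at 4.95, 7.77 and 3.54 FPKM with vehicle. The empagliflozin libraries lay close together and above all vehicle libraries, and the log2 change was 1.25 ± 0.24 (SE), or 1.17 with empagliflozin library 2 alone. Acvr1c, which encodes the activin receptor-like kinase ALK7, was at 3.84, 2.74 and 2.74 FPKM with empagliflozin and at 1.05, 0.88 and 1.51 FPKM with vehicle, a log2 change of 0.94 ± 0.20. Gpr153, an orphan receptor gene, was at 9.69, 9.47 and 9.26 FPKM with empagliflozin and at 3.09, 5.95 and 1.61 FPKM with vehicle, a log2 change of 1.32 ± 0.34. Sccpdh was at 36, 32.3 and 34.5 FPKM with empagliflozin and at 21, 25.8 and 17.3 FPKM with vehicle, a log2 change of 0.67 ± 0.16. In these 4 genes empagliflozin library 2 lay closer to the other libraries of its arm than to vehicle library 2. Vehicle library 2 was the highest and vehicle library 3 the lowest of the vehicle libraries in Dclk3, Gpr153 and Sccpdh. In Acvr1c vehicle library 3 was the highest and vehicle library 2 the lowest of that arm, the order of the hippocampus list. The part of the regional makeup in these results was not tested. Shisa3, Rbms1 and Stk32c had log2 changes of 1.42 ± 0.34, 0.84 ± 0.21 and 0.64 ± 0.16, also with arms that did not overlap. The choice by lowest p favours arms without overlap.

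A second set of higher genes had its high values in empagliflozin libraries 1 and 3, where the striatum markers were high. Pld5, a phospholipase D family member, was at 8.81, 3.53 and 7.9 FPKM with empagliflozin and at 1.36, 1.62 and 0.63 FPKM with vehicle. Kcnk2, the mechanically gated potassium channel TREK-1, was at 23.9, 13.5 and 25.9 FPKM with empagliflozin and at 7.73, 10.2 and 8.57 FPKM with vehicle. Htr6, a serotonin receptor known from the striatum, was at 6.39, 3.14 and 7.25 FPKM with empagliflozin and at 1.44, 1.67 and 2.42 FPKM with vehicle. These 3 genes were named by lowest p, and the arms did not overlap in any of them. Empagliflozin library 2 was the lowest of its arm each time. Of the 12 striatum markers all 12 were higher with empagliflozin (median 2.2), 6 of them at an unadjusted p under 0.05, where 61% of all genes were above 0 and 1.45% were higher at that p.

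Emcn (gene 295490) was higher with empagliflozin. It was at 10.5, 9.98 and 9.06 FPKM in the empagliflozin libraries, against 5.86, 7.95 and 6.25 FPKM in the vehicle libraries, and the arms did not overlap. Its log2 change was 0.51 ± 0.15 (SE, limma adjusted p = 0.982), and 0.43 to 0.62 with each library left out in turn. With empagliflozin library 2 alone it was 0.52, and that library, without raised striatum markers, lay between the other libraries of its arm. Of 18 endothelial markers all 18 were tested and all 18 had a log2 change above 0, where 61% of all genes did, with a median of 0.41. Quantile normalization and median-ratio scaling left 18 of 18 above 0. Only Emcn and Flt1 were at an unadjusted p under 0.05. Flt1, a receptor of vascular endothelial growth factor, was at 23.8, 19.5 and 22.9 FPKM with empagliflozin and at 12.9, 20.0 and 13.7 FPKM with vehicle, where vehicle library 2 overlapped the empagliflozin libraries. Kdr, the main signalling receptor of that factor, was at 3.75, 3.91 and 5.71 FPKM with empagliflozin and at 2.8, 3.55 and 1.79 FPKM with vehicle, without overlap.

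The arms did not overlap for 3 of the 18 endothelial markers, Emcn, Kdr and Slco1c1, all higher with empagliflozin, where 3.64% of all genes tested were higher without overlap. Cldn5, the claudin of the blood-brain barrier tight junction, was at 53.2, 47.8 and 54.1 FPKM with empagliflozin and at 33.7, 49.7 and 38.8 FPKM with vehicle. Tie1, an angiopoietin receptor family member, was at 9.63, 8.76 and 12.6 FPKM with empagliflozin and at 5.89, 9.35 and 6.56 FPKM with vehicle. In both genes vehicle library 2 lay within the range of the empagliflozin libraries. The mean log2 level of the endothelial list was 3.72, 3.63 and 3.96 in the empagliflozin libraries and 3.18, 3.74 and 3.16 in the vehicle libraries. The low values were those of vehicle libraries 1 and 3. Without empagliflozin library 3, 16 of 18 were higher (median 0.31), and without libraries 1 and 3 of that arm 15 of 18 (median 0.23). Mural cell markers had the same sign, 10 of 10 higher with a median of 0.43, but 6 of 10 with a median of 0.13 without both libraries. Neuron markers were higher in 3 of 12 (median -0.155). Oligodendrocyte and myelin markers were higher in 12 of 12 (median 0.64), and in 8 of 12 without both libraries (median 0.09). A list wholly above 0 was thus not particular to vessel markers. Red blood cell genes, which in unperfused tissue follow the blood left in vessels, were also higher in 3 of 3, with Hbb at 121, 153 and 129.9 FPKM with empagliflozin and 85.6, 149 and 65.5 FPKM with vehicle. The part of blood and vessel content in the endothelial result was not tested.

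Vegfa, the growth factor that acts on Flt1 and Kdr, was at 58.3, 53.8 and 54.3 FPKM with empagliflozin and at 36.4, 47.3 and 38 FPKM with vehicle. The arms did not overlap, and the log2 change was 0.45 ± 0.13 (SE). Of 13 hypoxia and angiogenesis genes tested, 11 were higher and 2 lower (median 0.44), with Vegfa the 1 at an unadjusted p under 0.05. Median-ratio scaling gave 9 higher and 4 lower. Apln, which encodes the vessel peptide apelin, was at 8.52, 8.22 and 7.46 FPKM with empagliflozin and at 3.71, 7.55 and 5.54 FPKM with vehicle. Adm, which encodes adrenomedullin, was at 1.11, 0.99 and 4.92 FPKM with empagliflozin and at 0.95, 0.79 and 0.92 FPKM with vehicle, so its difference lay in 1 library. Of the blood-brain barrier transport genes 14 of 15 were higher (median 0.23), none at an unadjusted p under 0.05. Without empagliflozin libraries 1 and 3 they were 8 higher and 7 lower. Slc2a1, the glucose transporter GLUT1 of the barrier, was at 66.9, 54.7 and 81.4 FPKM with empagliflozin and at 43.6, 67.4 and 54.9 FPKM with vehicle.

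Isg15 (gene 298693) was the third marker gene. Interferon binds its receptor on nearly all cells and, through the factor ISGF3, turns on genes whose promoters hold GAAA in tandem, 2 bases apart. Isg15 was at 5.23, 3.27 and 6.36 FPKM with empagliflozin and at 1.95, 2.35 and 2.03 FPKM with vehicle. The arms did not overlap, and empagliflozin library 2 was the lowest of its arm. The log2 change was 0.90 ± 0.23 (SE, limma adjusted p = 0.982), 0.73 to 1.12 with each library left out, and 0.46 with empagliflozin library 2 alone.

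The promoters of the interferon list were searched for that element because 30 of its 32 tested members lay on the same side of 0. RefSeq promoters (build GRCr8, 250 bases before to 50 after each gene's start) were given for 26 of the 35 members, Isg15 not among them. The letters GAAA, any 2 bases and GAAA again or, on the other strand, TTTC, any 2 bases and TTTC stood in 18 of the 26 (69.2%), against 1312 of 33469 promoters in all (3.92%), overlapping matches counted once per promoter. The promoters of Ifit3 and Bst2 are shown as examples of each orientation, 5′ to 3′ along the gene, with the matching letters in capitals. That of Ifit3 lies at chr1:241527076-241527375 on the plus strand and that of Bst2 at chr16:18254918-18255217 on the minus strand, where 2 overlapping matches run together.
Ifit3: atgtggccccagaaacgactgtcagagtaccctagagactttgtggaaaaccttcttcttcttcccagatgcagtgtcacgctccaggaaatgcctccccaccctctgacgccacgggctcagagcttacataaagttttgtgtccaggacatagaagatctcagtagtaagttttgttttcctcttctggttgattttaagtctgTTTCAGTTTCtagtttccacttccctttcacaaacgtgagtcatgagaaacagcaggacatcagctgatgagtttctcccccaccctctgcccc
Bst2: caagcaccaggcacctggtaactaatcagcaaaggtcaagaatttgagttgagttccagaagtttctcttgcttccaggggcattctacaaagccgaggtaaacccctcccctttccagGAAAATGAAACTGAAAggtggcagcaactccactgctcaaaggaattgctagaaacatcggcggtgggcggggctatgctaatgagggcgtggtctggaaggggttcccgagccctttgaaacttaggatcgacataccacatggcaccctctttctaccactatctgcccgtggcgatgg
A match in these 300 bases is a description of the letters and not a bound site. The list was made of known interferon response genes, so a share above that of all promoters follows from the choice of members. The share uses no brain value and says nothing about the brain change.

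Of 35 interferon response genes 32 were tested, and 30 of them had a log2 change above 0 (median 0.35), where 61% of all genes did. Both other scalings gave 29 of 32. Isg15 was the 1 member at an unadjusted p under 0.05. Bst2, the antiviral membrane protein tetherin, was at 8.15, 6.24 and 17.6 FPKM with empagliflozin and at 4.26, 5.47 and 5.68 FPKM with vehicle, without overlap. Ifit3, a binding partner of Ifit1, was at 10.8, 4.36 and 6.96 FPKM with empagliflozin and at 4.71, 4.43 and 3.67 FPKM with vehicle. Ifit1, which binds foreign RNA, was at 5.18, 2.59 and 5.57 FPKM with empagliflozin and at 3.23, 2.26 and 2.03 FPKM with vehicle. In Ifit1 and Ifit3 only empagliflozin libraries 1 and 3 lay above the vehicle libraries. Irf9, a subunit of ISGF3 and 1 of the 2 members with a change below 0, was at 8.98, 7.04 and 13.8 FPKM with empagliflozin and at 12, 9.07 and 23.5 FPKM with vehicle.

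The mean log2 level of the interferon list was 2.32, 1.88 and 2.75 in the empagliflozin libraries and 2.06, 1.95 and 1.85 in the vehicle libraries. Empagliflozin library 2 lay within the vehicle range. Without empagliflozin library 3, 22 of 30 members were higher (median 0.17). Without empagliflozin libraries 1 and 3, 11 of 30 were higher and 19 lower (median -0.07), so the direction of the list rested on the libraries with high striatum markers. Microglia markers were high in the same 2 libraries. Their mean log2 level was 4.58, 3.83 and 4.36 in the empagliflozin libraries and 4.06, 3.95 and 3.93 in the vehicle libraries. All 12 were higher (median 0.28), and 2 of 11 without those 2 libraries. Gpr34, a lysophosphatidylserine receptor of microglia, was at 16.6, 10.5 and 13.2 FPKM with empagliflozin and at 9.56, 8.23 and 8.71 FPKM with vehicle, a log2 change of 0.53 ± 0.18 (SE). Cd4, which rat microglia and macrophages carry as well as T cells, was at 8.3, 6.4 and 11.9 FPKM with empagliflozin and at 3.86, 5.23 and 2.55 FPKM with vehicle, a log2 change of 1.01 ± 0.28 (SE). MHC class II genes were higher in 6 of 6 tested (median 0.49), with their high values in empagliflozin library 3. RT1-Da and RT1-Ba of that list reached the 1 FPKM minimum only through this library, which favours a change above 0. Without empagliflozin library 3, 3 members were tested, 2 higher and 1 lower (median 0.06). The part of microglia and of meningeal tissue in the interferon result was not tested.

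**Figure D4:**
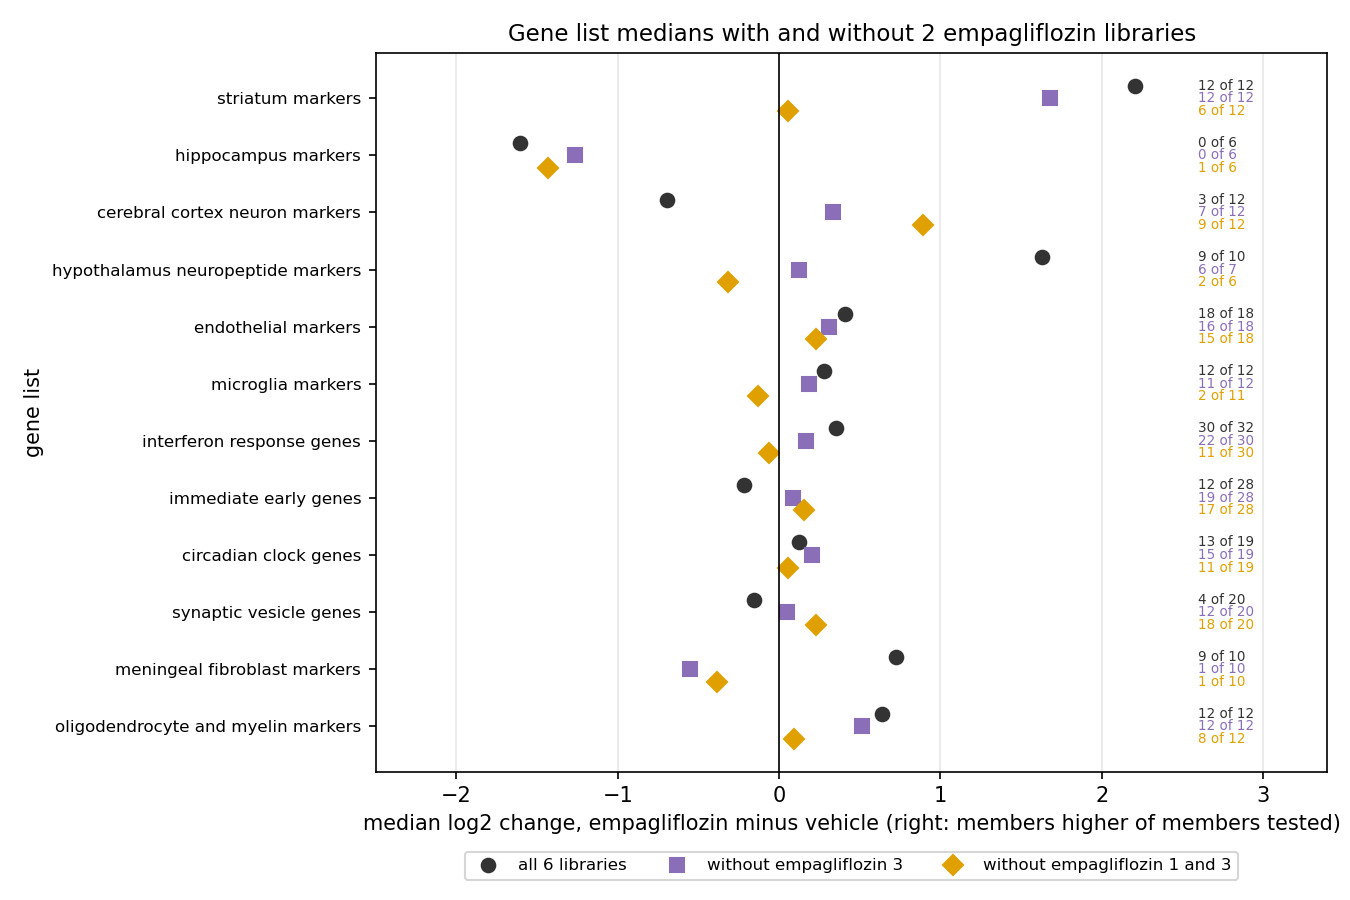
Median log2 change (empagliflozin minus vehicle) of 12 gene lists with all 6 libraries (circles), without empagliflozin library 3 (squares) and without empagliflozin libraries 1 and 3 (diamonds); the numbers at the right give the members above 0 of those tested. The interferon median moves to -0.07 without empagliflozin libraries 1 and 3, while the endothelial median stays above 0 at 0.23; those libraries were chosen by their regional markers, so the moves of the striatum and hypothalamus lists are a description only.

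Of 20 synaptic vesicle genes 4 were higher and 16 lower with empagliflozin (median -0.16), and 18 were higher and 2 lower without empagliflozin libraries 1 and 3 (median 0.23). Snap25, a fusion protein of the synaptic vesicle, was at 915, 1696 and 475 FPKM with empagliflozin and at 926, 1472 and 821 FPKM with vehicle, highest in library 2 of each arm. Slc32a1, the vesicular GABA transporter, was at 89.4, 43 and 114 FPKM with empagliflozin and at 41.5, 42.2 and 33.3 FPKM with vehicle, a log2 change of 0.95 ± 0.35 (SE). Its empagliflozin library 2 exceeded vehicle library 2 by a small margin. Gad1, an enzyme that makes GABA, was at 121, 75.8 and 118 FPKM with empagliflozin and at 76.7, 72.7 and 51.5 FPKM with vehicle. In both genes the high libraries were empagliflozin 1 and 3. They belong to a list of 10 GABA interneuron markers, of which 6 were higher and 4 lower (median 0.01), and the list level was lowest in empagliflozin library 3, at 5.75, 5.86 and 5.01 with empagliflozin and at 5.65, 5.76 and 5.12 with vehicle. Its member Cck, which encodes the peptide cholecystokinin, was at 338, 615 and 9.1 FPKM with empagliflozin and at 376, 525 and 241 FPKM with vehicle.

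Receptor and channel genes were mixed. Of 22 glutamate receptor genes 6 were higher and 16 lower (median -0.09), and Grm4 was the 1 at an unadjusted p under 0.05. Grm4, a presynaptic receptor, was at 14.8, 10.0 and 13.5 FPKM with empagliflozin and at 4.73, 9.02 and 2.35 FPKM with vehicle, without overlap. Of 16 GABA receptor genes 9 were higher and 7 lower (median 0.04). Gabra5, the subunit of extrasynaptic receptors in hippocampal neurons, was at 27.9, 29.1 and 15.9 FPKM with empagliflozin and at 45.5, 30.6 and 82.6 FPKM with vehicle, a log2 change of -1.02 ± 0.40 (SE). Its highest value was in vehicle library 3 and its lowest in empagliflozin library 3. Of 20 sodium and potassium channel genes 8 were higher and 12 lower (median -0.07). Scn4b, a sodium channel subunit abundant in the striatum, was at 117, 38.4 and 42.6 FPKM with empagliflozin and at 2.2, 30.3 and 10.7 FPKM with vehicle, without overlap.

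Transcripts near the drug's target were low in brain. Slc5a2 was at 0.76, 0.47 and 1.08 FPKM with empagliflozin and at 0.84, 0.58 and 0.66 FPKM with vehicle. Slc5a1, which encodes the intestinal cotransporter SGLT1, was at 0.05, 0 and 0 FPKM with empagliflozin and at 0.08, 0 and 0 FPKM with vehicle. Both missed the minimum of 1 FPKM and were not tested. Of 18 sodium pump and exchanger genes 11 were higher and 7 lower (median 0.09). Slc8a1, the sodium-calcium exchanger NCX1, was at 10.2, 12 and 6.83 FPKM with empagliflozin and at 20.8, 13.2 and 20.6 FPKM with vehicle. It was lower without overlap, with a log2 change of -0.85 ± 0.25 (SE).

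Genes of glucose and ketone use were balanced, 7 higher and 7 lower of 14 tested (median 0.01), and none was at an unadjusted p under 0.05. Oxct1, the enzyme that starts ketone use, was at 75.5, 61.4 and 63.5 FPKM with empagliflozin and at 77.5, 66.6 and 58.6 FPKM with vehicle. Bdh1, which oxidises hydroxybutyrate, was at 19.5, 20.1 and 19 FPKM with empagliflozin and at 17.9, 20.6 and 18.5 FPKM with vehicle. The 2 genes varied little between libraries and overlapped between the arms. Of 11 renin-angiotensin genes 7 were tested, 4 higher and 3 lower (median 0.15). Agt, the precursor of angiotensin that astrocytes make, was at 22.7, 31.8 and 334 FPKM with empagliflozin and at 90.9, 54.9 and 74.1 FPKM with vehicle, with 1 high library, the same as for Avp. The nuclear respiratory chain genes stood at 12 higher and 9 lower (median 0.02), and at 0 higher and 21 lower under median-ratio scaling. Ribosomal protein genes stood at 21 higher and 3 lower (median 0.07), and at 14 and 10 under that scaling.

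The brain change was also set against the mean change of the 6 other tissues with both arms, in 1 limma model of 42 libraries. It differed in 95 of 14000 genes (0.679%) at an adjusted p under 0.05, 51 with a more positive (0.364%) and 44 with a more negative (0.314%) change in brain. At a pseudocount of 0.1 the count was 12. This model gives each gene 1 spread over all tissues. For the 95 genes the median SD within brain arms was 0.656 on the log2 scale against a shared SD of 0.301, a ratio of 2.45, and over all genes tested it was 0.23 against 0.316. Of the 95, 7 were striatum markers, 3 were GABA interneuron markers, and the hippocampus, cerebral cortex and cerebellum lists held 2 each. Those of the cerebellum list were Neurod1 and Grm4, while its members Pcp2, Gabra6, Cbln3 and Fat2 lay below 1 FPKM in every brain library. Among the 3 marker genes none passed this test: the brain change differed from that of the other tissues by -1.48 ± 0.82 (SE) for Nr4a3, 0.83 ± 0.41 for Isg15 and 0.06 ± 0.58 for Emcn. The mean change of Emcn in the other tissues was 0.45. Leaving out brain libraries in turn gave 39 genes (without vehicle library 3) to 410 (without empagliflozin library 2), with 344 without vehicle library 2, and 53 without empagliflozin library 3.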

How the data were processed

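RNA extracted with Trizol was sequenced on a BGISEQ-500, 50 bases single-end, per the labels' protocols. Per the submitters' processing notes, HISAT2 2.0.4 and Bowtie2 2.2.5 were used with the rat build Rnor_6.0. The counter was not given in the sources used here. FPKM were deposited by the authors in 2 tables, 1 per arm, each of 20794 genes listed as mRNA. Depth is unknown, so count tests and counting intervals were left out. Steps between low values put the relative worth of 1 read at 0.976 to 1.04 across the brain libraries. Larger ratios were left out beforehand, which favours values near 1, so a library of unlike depth might not show. FPKM are scaled within each library, so a shift in abundant transcripts moves all others.

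The tables were joined on gene identifier, keeping genes that averaged 1 FPKM or more in either arm. Log2(FPKM + 1) values were fitted with limma 3.58.1 in R 4.3.3 (trend, empirical Bayes), 3 empagliflozin against 3 vehicle libraries, two-sided, with Benjamini-Hochberg adjustment over all genes tested and a threshold of 0.05. Log2 changes are empagliflozin minus vehicle on this scale, which understates the change of low genes. The brain change was compared with that of the 6 other tissues by an arm by tissue term. The test was tried on simulated data for 14000 genes with 200 changed. Gene lists (46, of which 13 regional and 13 of cell types) are described by counts and medians with no set test, and some genes stand in several lists. The members and lists were chosen with earlier results of these data known. Named genes are the 12 with the lowest p in each direction that have a proper symbol, Nr4a3, Emcn and Isg15, up to 4 members per list by lowest p, members that mark a region or cell type, and the transporters near the drug's target. Other list members in the text were chosen for their role, and a few genes are not reported here. Promoter sequences come from RefSeq, build GRCr8, which is not the build of the files, and were matched by gene identifier.

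Alternatives were quantile normalization, median-ratio scaling, a 0.1 pseudocount, testing without the minimum level or with one of 5 FPKM, robust estimation, 1 fit of all tissues, a block for the replicate number and each library left out. Leaving out empagliflozin libraries 1 and 3, the striatum marker level as a covariate, and counts at an unadjusted p under 0.05 were chosen after seeing the data.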

Additional observations from a re-analysis of the deposited data

Results flagged for a closer look

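The brain change differed from the mean change of the 6 other tissues in 95 genes by the arm by tissue term of limma, which shares 1 spread per gene over all tissues, and all genes below are flagged for that difference. At a pseudocount of 0.1 the count was 12. Among them were 8 of the genes named for a low p in brain. The difference, brain minus other tissues on the log2 scale, was -1.23 ± 0.15 (SE, adjusted p = 4.43e-05) for Ndst3, -1.55 ± 0.29 for Thpo 81811, -1.25 ± 0.19 for Tmem200a and -1.43 ± 0.25 for Sstr4. It was 1.83 ± 0.26 for Pld5, 0.78 ± 0.19 for Rbms1, 1.15 ± 0.16 for Htr6 and 1.36 ± 0.34 for Gpr153. The mean change in the other tissues was between -0.07 for Thpo 81811 and 0.06 for Rbms1. In all 8 the empagliflozin and vehicle brain libraries did not overlap. These 8 were named for a low p in the same libraries, which favours that. Over all genes tested the arms did not overlap in 829 (5.92%). The shared spread was smaller than the brain's own spread for the 95 genes as a group, by a ratio of 2.45 in the median, and in the brain fit alone each had an adjusted p of 0.982.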

How the results depend on the processing

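No gene passed in brain under quantile normalization, median-ratio scaling, a 0.1 pseudocount, no minimum level, a minimum of 5 FPKM, robust estimation, the striatum covariate or without empagliflozin libraries 1 and 3; all tissues in 1 fit gave 168, and leaving out 1 library 0 to 8. At an unadjusted p under 0.05, no minimum level gave 348 genes higher, a minimum of 5 FPKM 124 higher, all tissues in 1 fit 487 higher and 390 lower, the striatum covariate 25 higher and 56 lower, and no empagliflozin libraries 1 and 3 73 higher; leaving out 1 library gave 87 to 966 higher and 74 to 425 lower. The brain change differed from that of the other tissues in 12 genes at a pseudocount of 0.1 and 57 at a minimum of 5 FPKM, against 95, and in 39 to 410 with 1 library left out. Of the named genes, Six3 turned to -0.02 with the striatum covariate, against 2.29; the cause was not tested. The labels do not state that replicate numbers pair the rats. Correlations over genes of the deviations from the arm means were 0.0071, 0.204 and -0.0483 for libraries of the same number. They were -0.197 to 0.165 for different numbers, and such values cannot show whether rats were paired. With the replicate block 0 genes passed, with 230 higher and 161 lower at an unadjusted p under 0.05. A random effect for the animal number in the 7-tissue model gave 99 genes that differed. The deposited values carry no depth, so low genes have no error beyond the spread of 3 libraries.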

Other observations

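Cholinergic genes, which no list of the report held, were among the 95 genes whose brain change differed from the other tissues; they were picked after their values were seen. Chat, the enzyme that makes acetylcholine, was at 4.01, 0.47 and 8.56 FPKM in the empagliflozin libraries and at 0.25, 0.47 and 0.29 FPKM in the vehicle libraries. Slc18a3, which loads acetylcholine into vesicles, was at 2.14, 0.4 and 5.5 FPKM with empagliflozin and at 0.13, 0.42 and 0.13 FPKM with vehicle. Slc5a7, which takes up choline, was at 5.38, 0.32 and 10.0 FPKM with empagliflozin and at 0.77, 0.27 and 0.12 FPKM with vehicle. In all 3 genes empagliflozin libraries 1 and 3 were high, the libraries with high striatum markers, and library 2 of each arm was nearly equal.

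Further genes of that set, also picked after their values were seen, went in both directions. The serotonin receptor gene Htr1a, abundant in the hippocampus, was at 2.96, 4.37 and 2.35 FPKM with empagliflozin and at 13.6, 3.86 and 13.2 FPKM with vehicle, high in vehicle libraries 1 and 3. Of the other serotonin receptor genes of the set beside Htr6, Htr1f was at 2.28, 1.99 and 1.78 FPKM with empagliflozin and at 1.68, 1.16 and 0.37 FPKM with vehicle, and Htr1d was at 2.43, 0.7 and 4.11 FPKM with empagliflozin and at 0.41, 0.58 and 0.06 FPKM with vehicle. Slc9a4, a sodium-hydrogen exchanger, was at 1.05, 0.53 and 1.01 FPKM with empagliflozin and at 12.1, 0.77 and 17.5 FPKM with vehicle, the same vehicle libraries as for Fibcd1.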
